A study of Mus musculus with 6 samples.

Results

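The miR-17-92 cluster is a group of miRNA hairpins cut from 1 primary transcript. It was followed member by member in type H and type L endothelial cells (ECs) of mouse bone marrow. The members were chosen by name and not by a rule on their values, though earlier results of these data were known. They were 8 mature miRNAs of the cluster, out of 1881 mouse miRNAs on the array. All 8 were on the array, 6 were detected on all 6 arrays, miR-17-5p was detected on 1 array and miR-18a-3p was detected on 0.

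The study asked which miRNAs differ between CD31hiEmcnhi (type H) and CD31loEmcnlo (type L) ECs, the capillary endothelium of the metaphysis and that of the marrow cavity. Both groups came from wild-type C57BL/6 mice aged 1 month, with no transgene, deleted gene or drug, and each held 3 arrays that the labels call biological replicates. The labels give the mice as male and the methods give them as female. The labels also state that the sorted cells were grown on fibronectin in endothelial medium before RNA was extracted, a step that the methods of the array do not mention. How many animals gave the RNA of 1 array was not given in the sources used here.

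A miRNA loaded on an Argonaute protein pairs with messenger RNAs mainly through its seed, the bases shortly after its 5′ end, and lowers their translation and stability. The cluster is induced by Myc, is amplified or overexpressed in many lymphomas, and is required for normal B-cell, lung and skeletal development. In ECs its members have been linked both to proliferation and to restraint of vessel sprouting.

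The sequences show which members can be told apart and which share their targets. All 8 were found in RefSeq (build GRCm38.p6), where the cluster spans 836 nt at chr14:115043671-115044506 on the plus strand and holds 6 hairpins. Each mature miRNA lies within its hairpin and is given 5′ to 3′, with the seed (bases 2 to 8) in capitals.
mmu-miR-17-5p: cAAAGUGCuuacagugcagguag
mmu-miR-20a-5p: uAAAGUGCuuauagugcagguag
mmu-miR-18a-5p: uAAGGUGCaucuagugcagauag
mmu-miR-19a-3p: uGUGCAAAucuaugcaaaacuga
mmu-miR-19b-3p: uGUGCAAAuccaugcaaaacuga
mmu-miR-92a-3p: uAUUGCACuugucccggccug
mmu-miR-17-3p: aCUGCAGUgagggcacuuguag
mmu-miR-18a-3p: aCUGCCCUaagugcuccuucug

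MiR-17-5p and miR-20a-5p shared the seed AAAGUGC and differed at 2 of 23 positions, C1U and C12U, counted from 1 at the 5′ end of miR-17-5p. MiR-18a-5p had the seed AAGGUGC, which differs from that of miR-17-5p by A4G. MiR-19a-3p and miR-19b-3p shared GUGCAAA and differed at 1 position, U11C, outside the seed. MiR-92a-3p had the unrelated seed AUUGCAC. MiR-17-3p and miR-18a-3p are the other strands of the hairpins of miR-17-5p and miR-18a-5p, and each had a seed of its own. MiR-19b-3p and miR-92a-3p are also made from hairpins on chromosome X, and the array cannot tell the source of either.

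The arrays had 1 colour and read each miRNA through up to a few short probes in repeated spots. The signal of a miRNA is given here as the total of all its own probes, detected or not, in scanner intensity units. It was used in place of the total that the scanner software lists. That listed total differed from the sum of a miRNA's own detected probes for 65 to 85 of the detected miRNAs on an array. A sum over the detected probes alone was an alternative. Type H arrays detected 263 to 281 miRNAs and type L arrays 295 to 309. Each cell type lay on a slide and scan of its own, so slide, scan and cell type cannot be told apart in any result below. Control features do not come from the cells, and 10 of them were well above background on all arrays. The type H slide was the brighter for all 10, with log2 differences of 0.22 to 1.46. Their part in the results was not tested. The number of arrays limits the precision.

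The defining endothelial markers, miR-126a-3p and miR-126a-5p, were detected on 0 arrays. Their summed total was 2.49 to 4.74 in type H ECs and -0.10 to 0.67 in type L ECs. Of 7 haematopoietic miRNAs 0 were detected on any array, with sums of 6.28 to 9.19 in type H ECs and 1.42 to 2.68 in type L ECs. All 7 stromal and mural miRNAs were measured, and 6 of them were detected on all arrays. By limma 5 of these 7 were higher in type H ECs, 1 was lower and 1 was not past the threshold. Over all miRNAs tested, 44.7% were past it and higher and 42.1% were past it and lower. The summed totals of the 7 stromal and mural miRNAs were 898 to 1137 in type H ECs and 769 to 879 in type L ECs. The part of other cell types in the values of the cluster was not tested. In such bulk RNA, fewer cells of a kind and less RNA per cell cannot be told apart.

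Before any normalization, 5 of the 6 detected members had every type H array above every type L array, and miR-17-3p did not. Of all miRNAs tested, 31.8% had this. For the test, the totals were made comparable by quantile normalization across the whole array, held at a floor of 1 and put on the log2 scale. Tested were the 311 miRNAs that all 3 arrays of either cell type detected. The adjusted p below are from limma with Benjamini-Hochberg adjustment over these 311, at a threshold of 0.05. They weigh a difference against the spread between arrays of the same slide. Spread between slides is not in them, since each cell type had a slide of its own. All 6 tested members were past the threshold and higher in type H ECs, and 0 were lower. Over all miRNAs tested, 44.7% were past it and higher and 42.1% were past it and lower. After normalization all 6 members also had no overlap between the cell types, which 45.7% of the tested miRNAs had with type H ECs above. The median log2 difference was 1.20 over the 6 members, with a range of 0.32 to 2.28, and 0.03 over all miRNAs tested.

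**Figure D1:**
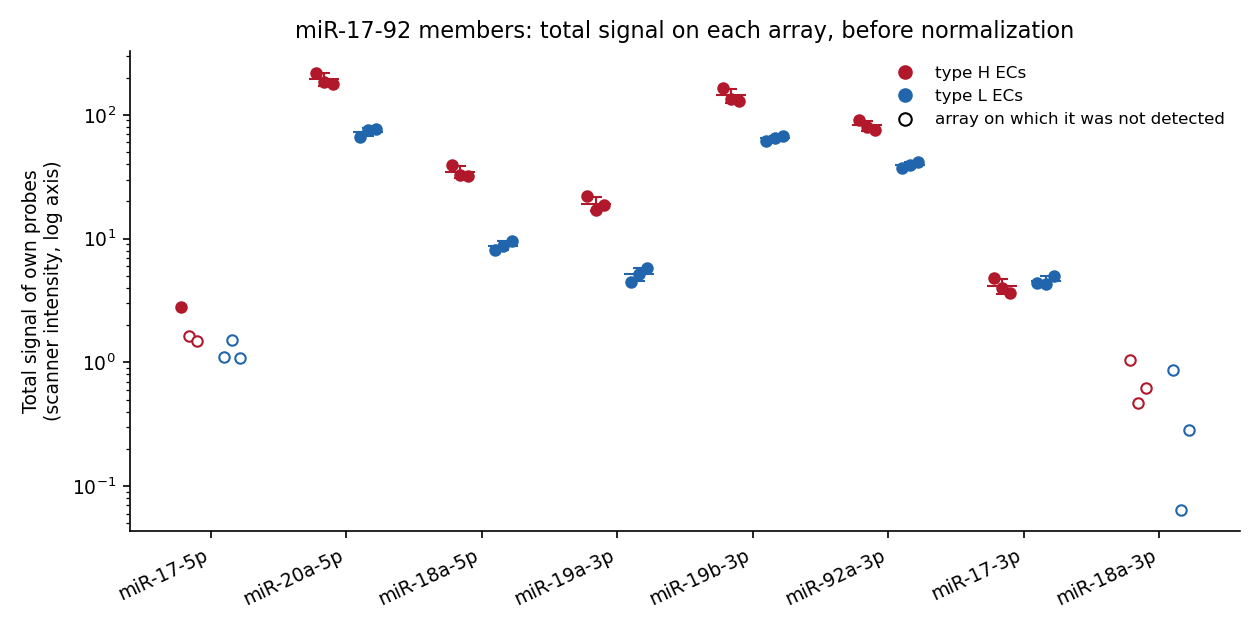
Total signal of each member's own probes on every array, in scanner intensity units on a log axis. Points are arrays, lines are means with SD for members detected on all 3 arrays of a cell type, and open points are arrays on which the member was not detected. Type H arrays lie above type L arrays for 5 members, while miR-17-3p overlaps, with 3.64 to 4.80 against 4.26 to 5.03.

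The miR-17 seed is known for repressing cell-cycle brakes such as Cdkn1a and the death factor Bim. MiR-20a-5p carried it and was higher in type H ECs. Its totals were 219, 185 and 176 on type H arrays 1, 2 and 3, and 66.7, 75.7 and 76.95 on type L arrays 1, 2 and 3. The lowest type H array was thus far above the highest type L array. The means were 193 ± 22.9 (SD, n = 3) and 73.1 ± 5.58 (SD, n = 3), a ratio of 2.64. After normalization the log2 difference was 1.29 (standard error 0.035, 95% interval 1.20 to 1.38), or 2.44-fold, with an adjusted p of 3.75e-06 from limma. It ranked 19 among the 311 by size of the rise.

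MiR-17-5p, with the same seed, gave almost no signal. Its totals were 2.80, 1.65 and 1.49 in type H ECs, and it was detected on type H array 1 alone. They were 1.10, 1.52 and 1.09 in type L ECs, where it was not detected. On type H array 1 the total that the scanner software lists was 185.6, which is 183 above its own probes. The own-probe totals of the cell types overlapped. After normalization the log2 values were 1.44, 0.80 and 0.85 against 0.06, 0.65 and 0.12, which did not overlap. MiR-17-5p did not pass the filter, so it was not tested and no fold is given. The array reads miR-17-5p through probes of 12 and 13 nt, which are printed because they are short and shared, here 5′ to 3′ and complementary to its 3′ end.
miR-17-5p, 12 nt: ctacctgcactg
miR-17-5p, 13 nt: ctacctgcactgt
miR-20a-5p, 19 nt: ctacctgcactataagcac

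Both miR-17-5p probes also matched miR-106a-5p without a mismatch, and matched miR-20a-5p and miR-20b-5p with 1 mismatch. The probes of miR-20a-5p had 1 mismatch to miR-17-5p and miR-20b-5p. The 12-nt probe was above 3 times its own error on 0 arrays and the 13-nt probe on 1. Of the 160 miRNAs whose longest probe had at most 13 nt, 20.0% were detected on all 6 arrays, against 11.6% of the 1721 with a longer one. Why miR-17-5p was not detected was not tested.

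MiR-18a-5p, which is known for repressing the matrix proteins Ctgf and thrombospondin-1, was higher in type H ECs. Its totals were 39.5, 32.8 and 31.9 in type H ECs and 8.05, 8.73 and 9.54 in type L ECs. The groups did not overlap, and the ratio of the means, 34.7 ± 4.13 (SD, n = 3) against 8.77 ± 0.745 (SD, n = 3), was 3.96. The normalized log2 difference was 2.28 (standard error 0.057, 95% interval 2.14 to 2.42), or 4.86-fold, with an adjusted p of 2.61e-06 from limma. It ranked 4 of 311. The size depends on the signal used. The deposited totals of the type L arrays, 22.0, 21.8 and 22.3, were 14.2 to 15.3 above the own probes, and with totals as deposited the log2 difference was 0.89. With normexp background correction it was 0.80. Both were past the threshold. Which member had the largest difference also depended on the signal. In the fit reported here it was miR-18a-5p, with an interval that overlapped that of miR-19a-3p (2.24). MiR-19a-3p was larger with totals as deposited (3.62), with probes above 3 errors (2.97 against 2.56) and in the authors' table (3.13 against 2.58), and miR-20a-5p was larger with normexp (1.12).

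The miR-19 seed is the part of the cluster best known for its role in lymphoma. MiR-19a-3p had totals of 22.0, 17.0 and 18.5 in type H ECs and 4.49, 5.22 and 5.78 in type L ECs. The cell types were well apart, with means of 19.2 ± 2.55 (SD, n = 3) and 5.16 ± 0.651 (SD, n = 3). The normalized log2 difference was 2.24 (standard error 0.11, 95% interval 1.97 to 2.51), or 4.72-fold, with an adjusted p of 1.3e-05 from limma and rank 5 of 311. It moved from 0.62 with normexp to 3.62 with totals as deposited and was past the threshold in both. In type L ECs the signal was near background, with totals close to those of miR-17-3p. The 20-nt probe was above 3 times its error on 0 type L arrays. The 21-nt probe was so on all 6 arrays, with as few as 2 of its 15 spots well above background. The fold and rank of miR-19a-3p thus rest on a low type L signal.

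MiR-19b-3p, which has the same seed, was also higher in type H ECs. Its totals were 165.5, 134.8 and 130.2 in type H ECs and 61.1, 64.6 and 67.5 in type L ECs. Again no type L array reached a type H array. The normalized log2 difference was 1.10 (standard error 0.039, 95% interval 1.00 to 1.20), or 2.15-fold, with an adjusted p of 5.14e-06 from limma. The chromosome X hairpin may add to this total, and its share cannot be told apart.

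MiR-92a-3p, known for repressing the integrin subunit Itga5 and for limiting vessel growth, had totals of 90.3, 80.3 and 75.5 in type H ECs. In type L ECs they were 37.1, 39.6 and 41.4. The groups did not overlap and the ratio of the means was 2.08. The normalized log2 difference was 1.10 (standard error 0.039, 95% interval 1.01 to 1.20), or 2.15-fold, with an adjusted p of 5.03e-06 from limma. With normexp it was 0.63, also past the threshold.

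**Figure D2:**
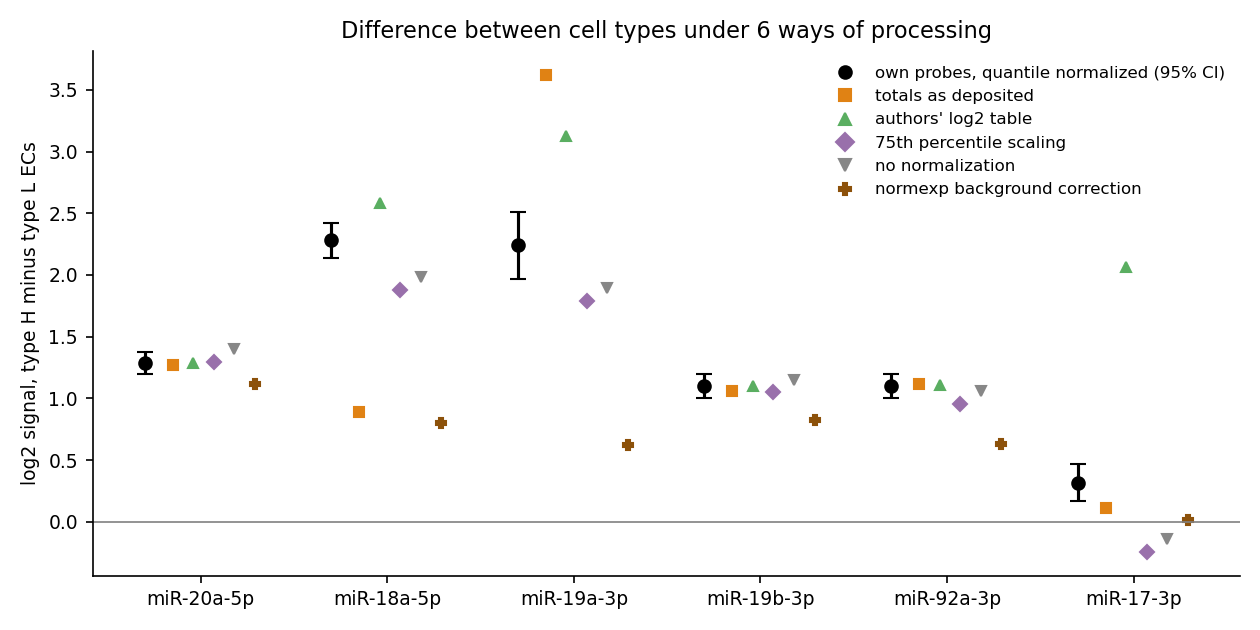
Log2 difference, type H minus type L ECs, of the 6 tested members under 6 ways of processing. Black points carry 95% intervals and other symbols are alternatives. Values of miR-20a-5p, miR-19b-3p and miR-92a-3p lie between 0.63 and 1.40, those of miR-18a-5p and miR-19a-3p spread from 0.62 to 3.62, and miR-17-3p crosses 0.

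The direction of miR-17-3p, the other strand of the miR-17 hairpin, depended on the scaling. Its totals were 4.80, 3.99 and 3.64 in type H ECs and 4.38, 4.26 and 5.03 in type L ECs. These overlapped, and the ratio of the means was 0.91. After quantile normalization the log2 values were 2.35, 2.25 and 2.25 against 1.92, 1.90 and 2.08, which no longer overlapped. The log2 difference was then 0.32 (standard error 0.060, 95% interval 0.17 to 0.47, adjusted p = 0.00326 from limma), or 1.25-fold, rank 111 of 311. With each array scaled instead on its 75th percentile, taken over miRNAs detected everywhere, it was -0.24 (adjusted p = 0.011 from limma), the opposite direction and past the threshold. That scaling moved the median of the 231 miRNAs detected on all arrays from 0.11 to -0.22.

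The deposited totals of miR-17-3p were far larger than its own probes give, with 183, 153 and 144 in type H ECs and 132, 145 and 150 in type L ECs. The excess was 129 to 180 on all 6 arrays. The authors' log2 table had 1.90, 1.998 and 2.12 against -0.01, -0.13 and -0.04, and gave a difference of 2.06. Neither of its probes stood far above background. The 14-nt probe was above 3 times its error on 0 arrays and the 15-nt probe on 6, with at most 5 of its 15 spots well above background on any array. The direction of miR-17-3p is therefore not settled by these arrays.

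**Figure D3:**
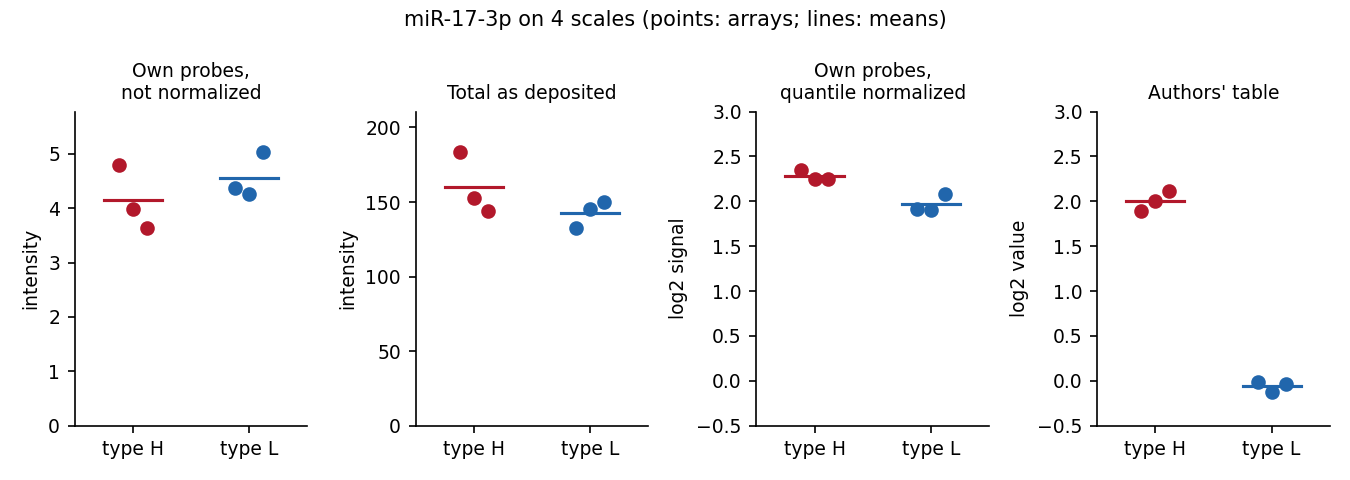
MiR-17-3p on 4 scales, with arrays as points and means as lines. From left to right are the own-probe total and the deposited total in scanner intensity, then the quantile-normalized own total and the authors' table on the log2 scale. The cell types overlap in the first pair of panels and are apart in the others, by 0.32 and 2.06.

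MiR-18a-3p, the other strand of the miR-18a hairpin, was not detected on any array. Its totals were 1.05, 0.47 and 0.62 in type H ECs and 0.87, 0.06 and 0.28 in type L ECs, which overlapped. All 4 of its probes were at or below 3 times their error on every array, so these values have no order.

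The probes of 1 miRNA read the same RNA and are no replicates, but they show whether a difference rests on 1 probe. The members had 18 probes with 0 saturated spots, and 11 passed the filter, above 3 times their error on all arrays of a cell type. Of the 11, 9 were above 3 errors on all 6 arrays, and all 9 were past the threshold and higher in type H ECs by limma. Among all 415 probes read on all 6 arrays 47.5% were so, and among the 577 probes tested 43.2%. The other two, the shorter probes of miR-18a-5p and miR-19a-3p, were above 3 errors on no type L array. They passed the filter only through type H ECs and are not counted, since that fixed their direction. The longer probes of these miRNAs, ctatctgcactagatgcac and tcagttttgcatagatttgca, were read on all 6 arrays. These gave log2 differences of 2.15 (standard error 0.063) for miR-18a-5p and 2.14 (standard error 0.11) for miR-19a-3p. For miR-20a-5p, miR-19b-3p and miR-92a-3p both probes gave differences between 1.10 and 1.48. The 15-nt probe of miR-17-3p gave 0.37.

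**Figure D4:**
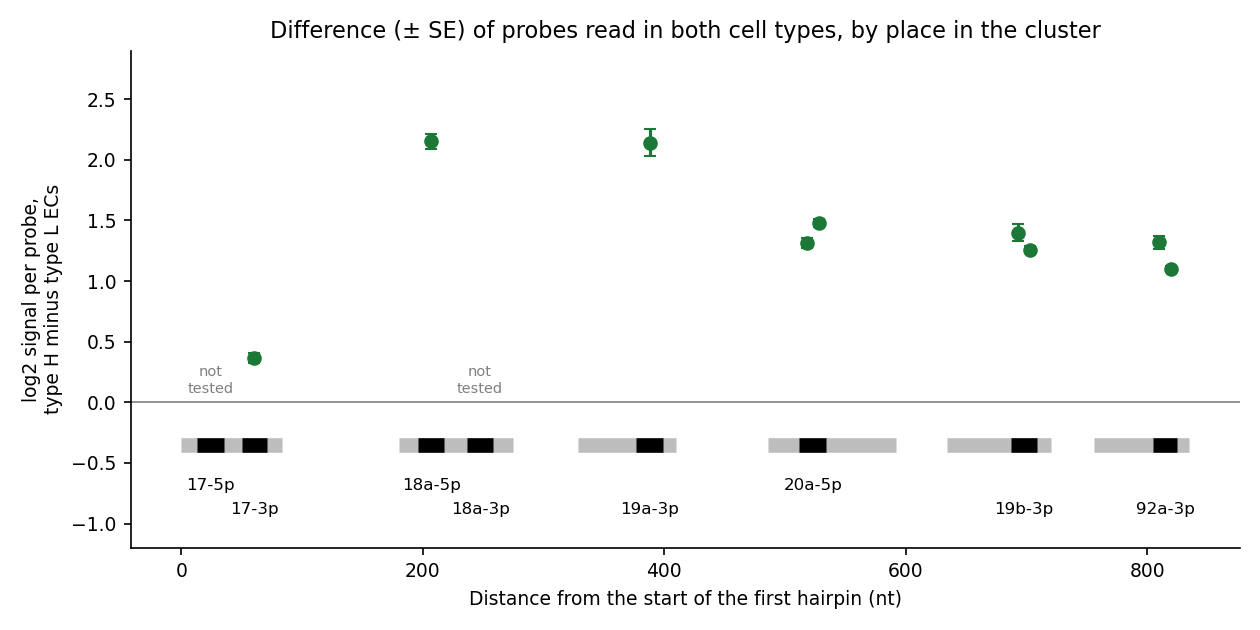
Probe-level log2 difference, type H minus type L ECs, by distance in nt from the start of the first hairpin. Grey bars are hairpins, black bars are mature miRNAs and points are the 9 probes read on all 6 arrays, with standard errors. The probes of miR-18a-5p and miR-19a-3p, from the second and the third hairpin, lie at 2.15 and 2.14, and all others lie below 1.5.

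Whether members cut from 1 transcript differed by the same amount between the cell types was compared within each array for 3 pairs. These pairs compare shifts and not levels. The log2 signal of miR-19a-3p minus that of miR-19b-3p, which differ by U11C, was 1.14 larger in type H ECs, with no overlap between the cell types. For miR-19a-3p against miR-92a-3p it was also 1.14 larger. Each gave p = 0.10 in the exact two-sided permutation test, the smallest that 3 against 3 arrays allow, and 0.15 adjusted over the 3 pairs. MiR-19a-3p and miR-18a-5p differed by -0.04 in their shift (exact permutation p = 0.6). The miR-19a-3p probes had 1 mismatch to miR-19b-3p and the reverse, so signal of either could be read by the other's probes. With normexp the first pair gave -0.20, the opposite direction, and the second gave almost no difference, at -0.01 (exact permutation p = 0.8).

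The other strands of the same hairpins are 6 names: miR-19a-5p, miR-19b-1-5p, miR-20a-3p, miR-92a-1-5p, miR-92a-2-5p and miR-19b-2-5p. All 6 were on the array and 0 were detected on any array. A list of 10 paralogs held miRNAs with the seed of miR-17-5p, miR-18a-5p or miR-92a-3p, and 9 of them were on the array by name, and miR-106a-5p was not. Detected on 0 arrays were 5 of them, miR-18b-5p, miR-32-5p, miR-92b-3p, miR-363-3p and miR-367-3p. The other 4 were detected on all 6 arrays, and all 4 were past the threshold and higher in type H ECs, as were 44.7% of all miRNAs tested. The list did not hold every miRNA with a member's seed. Of 14 such miRNAs in RefSeq it left out 4, miR-106a-3p, miR-20b-3p, miR-6383 and miR-7069-3p, which were on the array and detected on 0 arrays.

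Of these paralogs, miR-20b-5p comes from the chromosome X cluster and has the miR-17 seed. Its totals were 43.5, 35.7 and 35.1 in type H ECs and 14.6, 15.3 and 17.4 in type L ECs, with no overlap. The log2 difference was 1.55 (standard error 0.062, adjusted p = 7.32e-06 from limma). It differs from miR-20a-5p by U1C and U10C, and the probes of miR-20a-5p had 1 mismatch to it. The miRNAs of the third paralog cluster had log2 differences of 0.51 for miR-93-5p, 0.41 for miR-106b-5p and 0.22 for miR-25-3p, all past the threshold by limma. Their groups did not overlap either.

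Likeness to miR-19a-3p was measured as the root mean square distance between log2 profiles over the 6 arrays, each centred on its own mean. Among the members miR-18a-5p was nearest, at 0.081, followed by miR-20a-5p at 0.49. Among 221 other miRNAs detected on all arrays, the 5 nearest were miR-185-5p (0.395), miR-28a-5p (0.436), miR-365-3p (0.494), miR-467d-3p (0.563) and miR-301a-3p (0.575), where the median was 1.08. MiR-18a-5p was thus nearer than any of these 5. The distance mostly follows the log2 difference between the cell types, which fell from 1.46 for miR-185-5p to 1.11 for miR-301a-3p. Under other signals miR-19a-3p and miR-18a-5p were less alike. Their shifts differed by 2.73 with totals as deposited, 0.41 with probes above 3 errors and 0.54 in the authors' table. The 6 points share their slides and normalization, and this is a description without a test.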

How the data were processed

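Type H and type L ECs were sorted from bone marrow and each RNA was hybridized to a 1-colour array, 3 per cell type. The authors extracted spot intensity, background-subtracted and in scanner units, with Feature Extraction 10.7.1.1 and deposited it unnormalized. A second deposited file holds log2 values, which their methods describe as quantile-normalized and whose offset at the floor is unknown. The labels describe labelled cRNA and the methods labelled small RNAs, which the files do not settle. The array design number in the file headers differs from that of the methods.

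From these files, the probe totals of each miRNA were summed, quantile-normalized over 1881 miRNAs, floored at 1 and log2-transformed. Of these, 1570 were removed by the filter. The comparison used limma 3.58.1 with eBayes in R 4.3.3 on all 6 arrays, with Benjamini-Hochberg adjustment. The step was tested on simulated data. Pairs of members used an exact permutation test. The members, lists and tests were chosen with earlier results of these data known. The rule named the 8 members, the other strands of their hairpins, the same-seed paralogs and the 5 nearest profiles to miR-19a-3p. Alternatives covered signal, background, normalization, filter, floor, test, weights, replicate block and each array left out. Levels of different miRNAs were not tested against each other. No genome was used beyond the RefSeq miRNA tables.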

Additional observations from a re-analysis of the deposited data

How the results depend on the processing

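Most miRNAs tested were past the threshold under any processing. Of the 311, 270 were so in the fit reported here, and 218 to 274 under the alternatives that tested the same 311. Of the 6 tested members, miR-18a-5p, miR-19a-3p, miR-19b-3p, miR-20a-5p and miR-92a-3p kept their direction and stayed past the threshold under 16 alternatives and with each array left out. MiR-17-3p did not. It was no longer past the threshold with totals as deposited (0.11, adjusted p = 0.169 from limma), with normexp (0.0113) and with a floor of 5 (0.0103), and it reversed with the 75th percentile of miRNAs detected on all arrays (-0.24), the 75th percentile over all miRNAs (-0.14) and no normalization (-0.14). The members past the threshold and higher were then 5. With the 75th percentile of miRNAs detected on all arrays, miR-17-3p was past it and lower. The causes were not tested.

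Scaling moved the split of calls over all miRNAs, from 139 higher and 131 lower to 98 and 176 (75th percentile), 103 and 150 (over all) and 95 and 141 (none). The median of the 231 miRNAs detected on all arrays was then -0.22, -0.11 and -0.12. With the filter set to detection on all 6 arrays, which tests fewer miRNAs, 81 were lower. Pair differences changed sign for miR-19a-3p and miR-18a-5p with totals as deposited (2.73), probes above 3 errors (0.41) and the authors' table (0.54). With normexp that of miR-19a-3p and miR-19b-3p changed sign (-0.20), and that of miR-19a-3p and miR-92a-3p was almost gone (-0.0135).

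Leaving out 1 array gave 0.28 to 0.37 for miR-17-3p, 2.24 to 2.34 for miR-18a-5p, 2.13 to 2.33 for miR-19a-3p, 1.07 to 1.13 for miR-19b-3p, 1.26 to 1.31 for miR-20a-5p and 1.08 to 1.13 for miR-92a-3p. The replicate numbers share only a number, with correlations of same-numbered arrays of 0.016, -0.12 and 0.15. With the replicate number as a block all 6 members were past the threshold and higher, so no call of a member changed. Over all 311 miRNAs tested, 262 were past it in that fit, 134 higher and 128 lower. By the methods' t-test, 266 of 311 miRNAs were under the usual threshold unadjusted and 264 after Benjamini-Hochberg adjustment, against 270 by limma, with all 6 members among them. Without a filter, 413 of 1881 miRNAs were called, 220 of them higher, and all 6 members were past the threshold. In that fit 62.1% of miRNAs had no variance and limma warned that its shared variance estimate was unreliable. The slide could not be fitted as a block because each slide held 1 cell type. Signal near background limits miR-17-5p, miR-17-3p and miR-18a-3p, and miR-19a-3p in type L ECs.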
